A study of Saccharomyces cerevisiae with 116 samples.

Results

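The genes described here encode proteins of the large (60S) ribosomal subunit of budding yeast, Saccharomyces cerevisiae. They are the 60 genes from RPL1A to RPL36A that were chosen by name, out of 7126 features in the count files, and all 60 had a row in every file. RNA was sequenced in 36 diploid mutation accumulation lines, which are carried through repeated single-colony bottlenecks, and in their ancestors. The HH experiment began with a homozygous S288C derivative with the alleles leu2-3.112, ho, his3-delta-D200, ade2, ura 3-52 and lys2-801, and its lines were kept for 2063 generations. The Hh experiment began with a heterozygous ho ura3 diploid, made by mating derivatives of the oak strain YPS606 and of DBPVG1106, and its lines were kept for 2108 generations. The labels place 10 aneuploid and 11 euploid lines in HH and 10 aneuploid and 5 euploid lines in Hh, with 3 colonies of each line. The HH ancestor had 3 libraries in run 1 and 2 libraries in run 2, and the Hh ancestor had 3. All cultures were grown in rich glucose medium (YPD) at 30 °C to log phase.

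The large subunit forms peptide bonds, and its proteins fold and hold the ribosomal RNA around the catalytic centre and the tunnel through which the new peptide leaves. After an ancient genome duplication yeast kept many ribosomal protein genes as a pair of paralogs (A and B) that encode the same or nearly the same protein. In growing yeast these genes are transcribed together under the factors Rap1, Fhl1, Ifh1 and Sfp1, and their transcription falls when growth slows.

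The members lay on 13 chromosomes, 39 of them held an intron, and their coding lengths ran from 180 to 1164 bases. Together they formed 24 complete pairs, of which 7 encode identical proteins. The 12 members with no partner among the 60 were RPL2A, RPL3, RPL5, RPL10, RPL16B, RPL25, RPL28, RPL29, RPL30, RPL32, RPL34A and RPL36A. Paralogs differ in how well reads of 75 bases can be told apart. The first 90 coding bases of a hardly separable pair and of a separable pair, read from the R64 reference genome (the assembly that sacCer3 also denotes), show this, with differing bases in capitals. RPL1A lies at chrXVI:135790-136443 (+ strand), RPL1B at chrVII:254641-255294 (+), RPL23A at chrII:59822-60739 (−) and RPL23B at chrV:396769-397653 (+).
RPL1A: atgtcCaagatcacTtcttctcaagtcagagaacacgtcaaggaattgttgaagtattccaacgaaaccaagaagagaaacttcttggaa
RPL1B: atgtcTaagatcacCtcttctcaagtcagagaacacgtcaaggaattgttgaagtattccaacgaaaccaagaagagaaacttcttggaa
RPL23A: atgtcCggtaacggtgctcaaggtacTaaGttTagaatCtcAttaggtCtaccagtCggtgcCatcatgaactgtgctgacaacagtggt
RPL23B: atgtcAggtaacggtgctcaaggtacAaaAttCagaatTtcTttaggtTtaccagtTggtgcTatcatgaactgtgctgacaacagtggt
Over the whole coding sequence the RPL1 pair differed at 4 of 654 bases and the RPL23 pair at 26 of 414. Of all 75-base stretches in the coding sequence, 28.45% were unique in the genome for the RPL1 pair and 91.95% for the RPL23 pair. The share was also below 80% for the RPL35 (20.3%), RPL4 (37.8%), RPL11 (44.1%), RPL7 (45.3%) and RPL14 (61.0%) pairs, so the values of these 6 pairs are uncertain. The other 18 pairs were at or above that share.

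Because these genes are known for a shared promoter architecture, the 600 bases before each start codon were searched for the Rap1-type letters ACCCANACA on both strands. They were found for 24 of 60 members (40.0%), against 214 of 6008 protein-coding genes (3.56%). The matches lay 179 to 523 bases before the start. Stretches of 45 bases around the match are shown on the gene's strand for 5 members, with the match in capitals. These 5 were picked because they hold a match and recur in the results on copy number and single colonies, so they do not show how common a match is. RPL23A is chrII:60901-60945 (−), RPL23B chrV:396381-396425 (+), RPL12A chrV:53703-53747 (−), RPL12B chrIV:1301109-1301153 (+) and RPL9A chrVII:228613-228657 (−).
RPL23A: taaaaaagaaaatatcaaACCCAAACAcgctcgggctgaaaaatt
RPL23B: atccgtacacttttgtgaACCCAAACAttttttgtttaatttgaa
RPL12A: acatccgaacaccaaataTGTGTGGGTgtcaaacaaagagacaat
RPL12B: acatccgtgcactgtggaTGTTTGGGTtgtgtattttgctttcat
RPL9A: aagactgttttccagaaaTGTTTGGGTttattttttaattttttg
The RPL23 pair and the RPL12 pair each carried a match in both partners, while RPL9A had one and RPL9B had none. AAAATTTT, the letters of the ribosomal RNA processing element, was found before 10 members (16.7%) and 13.6% of all genes, and the Abf1-type motif before 11 members (18.3%) and 25.7% of all genes. These searches describe letters, and a missing match says only that the letters are not in the window.

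Libraries held 4129372 to 12148296 reads in genes. Between 7.12% and 68.4% of a library's reads had no unique alignment, and 1.46% to 4.27% fell on more than 1 feature. Members took 1.37% of gene reads in the median library, and from 0.269% to 6.57% over all libraries. HIS3 had no read in the HH ancestors and 1319 to 1961 reads in the Hh ancestor. URA3 had no read in the Hh ancestor. It had 150 to 678 reads in the HH ancestors, which carry a ura3 allele too, so its level does not check the HH label. A changed chromosome was labelled in 72 cases, counting each library, and in 7 of them the median level of its genes was closer to that of 2 copies. They were chromosome V in HH123 replicate 1, VII in the 3 libraries of HH152, I and XV in Hh11 replicate 1 and VII in Hh59 replicate 1. Chromosome VIII of HH152, XII of Hh18 and XII of Hh11 replicate 1 were raised although the labels give 2 copies. Class comparisons, slopes and paralog shifts are also given without these libraries, with HH152 and Hh18 left out whole, an alternative chosen after seeing the data. HH1, a euploid line, also stood apart. Of 9 haploid markers (STE2, STE3, STE6, MFA1, MFA2, MF(ALPHA)1, GPA1, FUS3 and HO), genes that diploid cells are known to hold low or off, 4 were called higher and 1 lower there than in the ancestor, the largest by 8.23 on the log2 scale. The list took 0.160%, 0.0666% and 0.111% of gene reads in the colonies of HH1, and at most 0.0291% in any other library. No member was called in HH1 (0 of 60, background 1.57%), and the part of haploid cells in the results was not tested. Total RNA per cell was not measured, so a level is a share of each library's RNA.

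Levels differed widely among the members. Levels are given as CPM, reads scaled to a common library size with TMM factors, and between genes as CPM per kilobase of coding sequence (CPM per kb). In the median library RPL30 (YGL030W) had the highest level at 1310 CPM per kb and RPL32 (YBL092W) the next at 1241. The protein of RPL30 is known to limit the splicing of its own transcript. RPL25 (YOL127W), which sits by the exit of the peptide tunnel, followed at 985, RPL10 (YLR075W), a protein that joins late and completes the subunit, at 933, and RPL31A at 908. RPL5 (YPL131W), which binds 5S ribosomal RNA, was at 877. At the other end, RPL15B (YMR121C) was at 72.1, RPL22B at 66.4 and RPL7B at 23.2 CPM per kb. 

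Another 3 members had hardly any reads. RPL22A (YLR061W) had a median of 2 reads in a library, RPL33A (YPL143W) of 6 and RPL28 (YGL103W), in which mutations are known to give resistance to cycloheximide, of 21. RPL30 had 2720. In the deposited FPKM table these 3 members were low as well, with medians of 8.95, 132 and 81.8. Features named YLR062C, YPL142C and YGL102C, which are known as dubious reading frames over the same loci, had medians of 576, 2071 and 1760 FPKM, but only 1, 14 and 5.5 reads. The part of ambiguous reads in these low values was not tested. The 3 members are kept in every count over members, and their single values are not read as levels.

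**Figure D1:**
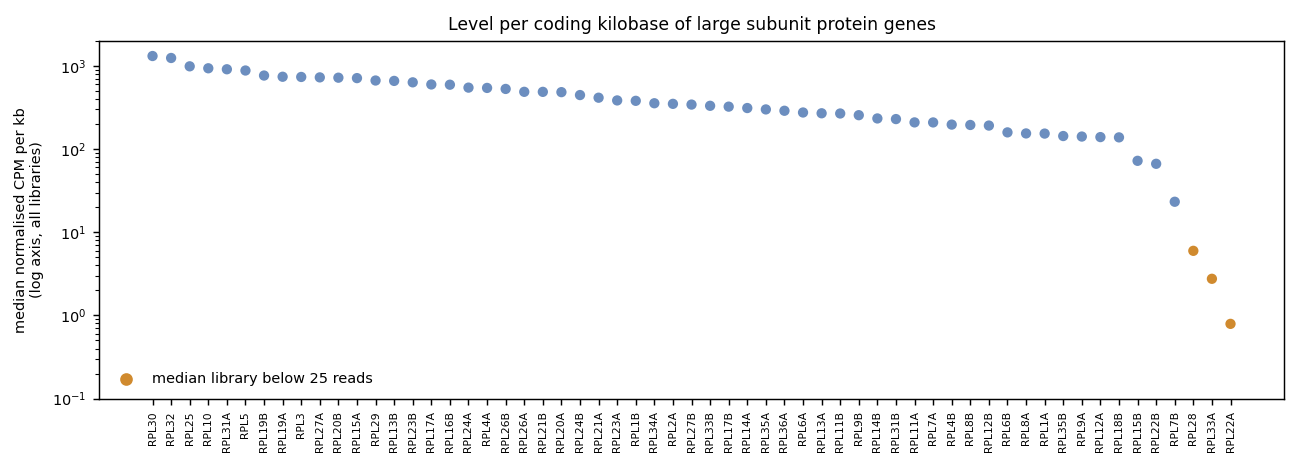
Median normalised CPM per coding kilobase over all libraries (log axis) for 59 of the 60 members, in falling order. RPL30 is highest at 1310, and the 3 members with a median below 25 reads (orange, a limit set after the values were seen) lie at the far right.

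The members rose and fell together. Each member was correlated over 21 HH lines with the mean log2 level of all other members, the 3 with few reads included. Summarised without those 3 members, the correlation had a median of 0.932, and 41 of 57 members reached 0.9. Over 15 Hh lines the median was 0.886, and 27 of 57 reached 0.9. All points share libraries and scaling, so these values are descriptions. The 23 of these 57 members with a Rap1-type match had a median of 0.943 in HH and 0.877 in Hh, and the 34 without one had 0.932 and 0.906. The level of 56 small subunit protein genes, the partners of the members in the ribosome, correlated with that of the members at 0.998 in HH and 0.997 in Hh. For 21 other large subunit protein genes the values were 0.984 and 0.970. Factors that assemble the large subunit (40 genes) followed less closely, at 0.657 and 0.809. Known regulators of these genes (12 genes) were at −0.20 and −0.41, and 20 general stress genes at −0.26 and −0.27.

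A few members did not follow. RPL15B, the minor copy of a core protein, had the lowest correlation over HH lines at −0.24, and 0.462 in Hh. Over HH lines it ran from 43.5 to 62.1 CPM, while its partner RPL15A ran from 152 in HH4 to 1277 in HH152. The SD of the log2 level over HH lines was 0.152 for RPL15B and 0.622 for RPL15A, so 1 copy was near flat where the other moved with the group. RPL18B had 0.131 in Hh and 0.741 in HH. The other 3 of the lowest 5 were RPL33A (−0.12), RPL28 (0.183) and RPL22A (0.379), the members with few reads. Next came RPL7B (0.537 in Hh) and RPL10 (0.552 in HH).

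The shared level varied more between colonies of a line than between lines. For each library it is the median over members of their log2 levels. Each member's level is taken relative to its mean over the lines, without the ancestors. The SD between colonies within a line was 0.713 in HH and 0.458 in Hh, and the SD of the line means was 0.544 and 0.368. In HH112 the 3 colonies lay at 2.34, −0.73 and 0.07, and in HH152 at 0.64, −0.25 and 2.21. In HH4, a euploid line, they lay at −2.43, −2.55 and −0.29. HH8 colonies, in contrast, spanned only 0.17 to 0.18, and HH9 colonies 0.16 to 0.28. One colony of HH112 and 1 of HH152 therefore held the highest levels of the series, and 2 colonies of HH4 the lowest. The 3 colonies of HH4 differed in the same way in the small subunit list, which was at −2.30, −2.55 and −0.37.

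Aneuploid lines were compared with euploid lines to ask whether a changed karyotype goes with a changed level of the members wherever they lie. In HH the members took 1.62% ± 0.83 (SD, n = 10 lines) of gene reads in aneuploid lines and 1.16% ± 0.28 (SD, n = 11) in euploid lines, and in Hh 1.80% ± 0.53 (SD, n = 10) and 1.53% ± 0.26 (SD, n = 5). The highest HH shares were 3.30% in HH152 and 2.98% in HH112, with single colonies at 6.12% and 6.57%. The group means of the log2 level were −0.02 and −0.26 in HH, and 0.30 and −0.05 in Hh. The group medians were −0.006 and −0.071 in HH, and 0.233 and 0.005 in Hh. The ranges overlapped in both experiments, from −0.71 to 0.87 against −1.76 to 0.21 in HH and from −0.22 to 0.97 against −0.45 to 0.17 in Hh.

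In HH no member passed the test between classes, with 0 of 60 called at an adjusted p below 0.05 by edgeR's quasi-likelihood test with Benjamini-Hochberg adjustment over all genes. The background was 0 of 6268 genes, or 0% called. At an unadjusted p below 0.05 there was 1 member (1.67%) and 614 genes (9.8%), and DESeq2 called 0 members and 1 gene. Estimates were positive for 56 of 60 members, with a median log2 difference of 0.28 where that over all genes was 0.01. The median was 0.11 over SC lines alone and 0.73 over X lines alone, the 2 series of names (SC and X) among the HH libraries. It was 0.27 without HH1 and 0.22 without the libraries in doubt, where again 0 members and 0 genes were called. It was 0.19 without HH50, the lowest value when 1 line was left out. The 4 members with the smallest p were RPL18B, RPL3, RPL11A and RPL1A.

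RPL18B ranged from 66.7 to 142 CPM with a median of 84.7 in HH aneuploid lines, and from 49.5 to 102 with a median of 75.5 in euploid lines. Its highest line was HH9, which has 3 copies of its chromosome. The log2 difference was 0.36 ± 0.14 (SE, edgeR adjusted p = 0.502). RPL3, next to the peptidyl transferase centre, ranged from 458 to 2267 CPM (median 732) against 265 to 818 (median 638), a difference of 0.57 ± 0.29 (SE, edgeR adjusted p = 0.507). The aneuploid maximum of RPL3 was HH112, and its colonies held 5630, 351 and 821 CPM, so 1 colony carried it. RPL11A, a protein that joins 5S RNA to the subunit, ranged from 62.3 to 386 CPM (median 112) against 51.6 to 116.1 (median 99.9), and RPL1A, of the mobile L1 stalk, from 99.3 to 444 (median 208) against 97.1 to 248 (median 176). Their differences were 0.60 ± 0.31 and 0.44 ± 0.25 (SE, edgeR adjusted p = 0.514 and 0.526). Groups overlapped for all 4, and the highest line for RPL11A and RPL1A was again HH112, which has 3 copies of their chromosome XVI.

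In Hh the estimates leaned the same way. They were positive for 55 of 59 members tested, with a median log2 difference of 0.37 against 0.04 over all genes, and 20 members (33.9%) had an unadjusted p below 0.05, near the 31.1% of all genes. None passed the adjusted threshold in edgeR (0 of 59), where 611 of 6189 genes did (9.87%). DESeq2 called 8 members, all higher in aneuploid lines, among 1104 genes (17.8%), and edgeR called 1, among 9.94% of genes, when TMM factors came from chromosomes that no line had gained or lost. Leaving out single lines also gave calls, with 5 members without Hh8, 3 without Hh4, 3 without Hh9 and 1 without Hh1, where 25.1%, 10.0%, 10.3% and 13.8% of genes were called. Each of these counts was a smaller share of the members than of all genes. Without the libraries in doubt 0 members and 53 genes (0.857%) were called, and the median over members was 0.29.

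RPL7A ranged from 161 to 286 CPM (median 218) in Hh aneuploid lines. In the 5 euploid lines it lay between 106 and 190 (median 153). The log2 difference was 0.54 ± 0.18 (SE, edgeR adjusted p = 0.0586), with Hh5 lowest and Hh77 highest. RPL12A, at the base of the stalk that recruits elongation factors, ranged from 68.0 to 131 CPM (median 87.2) against 51.6 to 78.0 (median 67.7), a difference of 0.48 ± 0.16 (SE, edgeR adjusted p = 0.0588). RPL9B ranged from 143 to 256 CPM (median 209) against 134 to 171 (median 153), a difference of 0.42 ± 0.14 (SE, edgeR adjusted p = 0.0682). RPL4A, which reaches into the exit tunnel, ranged from 428 to 690 CPM (median 533) against 306 to 503 (median 442), a difference of 0.44 ± 0.15 (SE, edgeR adjusted p = 0.0689). The groups overlapped for each of the 4.

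Whether the class difference itself differed between Hh and HH was tested as an interaction. No member passed in edgeR (0 of 60, against 324 of 6370 genes or 5.09%), 0 had an unadjusted p below 0.05 (23.1% of genes did), and DESeq2 also called 0. The median of the members was 0.09, and 0.05 without the libraries in doubt. The 4 smallest p belonged to RPL18B (−0.36 ± 0.24), RPL10 (0.36 ± 0.25), RPL22A (0.95 ± 0.66) and RPL15B (0.17 ± 0.15), as log2 differences with SE. Their edgeR adjusted p was 0.3855, 0.4004, 0.405 and 0.528. Ranges of RPL10 over lines overlapped in both experiments, at 644 to 1110 CPM against 546 to 1035 in HH and 321 to 761 against 255 to 489 in Hh.

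Related lists gave similar counts. In HH 54 of 56 small subunit genes and 39 of 40 assembly factors were positive, with medians of 0.34 and 0.21, and none was called. In Hh 55 of 56 small subunit genes and 32 of 40 assembly factors were positive (0.33 and 0.12), and none was called. Of 20 general stress genes, 1 was called higher and 4 lower in Hh, and 0 in HH. Of the 9 haploid markers 0 were called between classes in either experiment.

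Each line was then set against its ancestor, taken from the same experiment and the same series of names, with single colonies as the libraries. HH4, euploid by its label, had the most calls. There edgeR called 32 of 60 members, 31 lower and 1 higher, where 990 of 6050 genes were called (16.4%, with 8.02% lower and 8.35% higher). The called lower members ran from −0.92 to −4.62 with a median of −1.45, and the median over all 60 was −1.24. The largest was RPL22A, a member with few reads (0, 0 and 0.19 CPM against 1.39, 0.39 and 2.23 in the ancestor). RPL8A had 14.4, 11.6 and 106 CPM in the colonies of HH4 and 107, 253 and 174 in the ancestor, a difference of −2.03 ± 0.59 (SE, edgeR adjusted p = 0.0160). RPL9B had 18.2, 18.6 and 46.0 CPM against 92.0, 131 and 80.7, a difference of −1.90 ± 0.54 (SE, edgeR adjusted p = 0.0149). RPL32 had 46.4, 32.2 and 334 CPM against 359, 560 and 451, a difference of −1.75 ± 0.55 (SE, edgeR adjusted p = 0.0272). No colony of HH4 reached the ancestor's lowest library for RPL8A, RPL9B or RPL32, but colony 3 came close to it for RPL8A and RPL32. The count was 3 without colony 1, 0 without colony 2 and 55 without colony 3, where 9.16%, 2.49% and 16.9% of genes were called. Colony 3 was an unlike library, with 30.06% of reads without a unique alignment. Colonies 1 and 2 had 15.95% and 17.32%, and the ancestor libraries 19.28%, 21.01% and 16.84%. The part of this in the calls of HH4 was not tested. The 1 member called higher was RPL15B, with 67.3, 54.4 and 57.8 CPM against 53.4, 34.8 and 40.0, a difference of 0.45 ± 0.16 (SE, edgeR adjusted p = 0.0487).

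In Hh5, also euploid, 8 of 59 members were called, all lower, where 1176 of 6098 genes were called (19.3%, with 9.54% lower). They were RPL30, RPL24A, RPL35A, RPL7A, RPL16B, RPL17A, RPL24B and RPL6A, with differences from −0.95 to −1.43, and the median over members was −0.79. RPL30 had 85.6, 258 and 299 CPM in Hh5 and 569, 470 and 682 in the Hh ancestor, a difference of −1.43 ± 0.45 (SE, edgeR adjusted p = 0.0256). RPL24A had 66.4, 162 and 233 CPM against 461, 280 and 363 (−1.26 ± 0.39), RPL35A 28.6, 57.2 and 80.1 against 141, 86.1 and 142 (−1.17 ± 0.37), and RPL7A 47.6, 131 and 140 against 216, 198 and 268 (−1.10 ± 0.36), each a log2 difference with SE. Every colony of Hh5 lay below every ancestor library for these 4, and colony 1 was lowest. The count was 0 without colony 1, 0 without colony 2 and 5 without colony 3, where 1, 7 and 879 genes were called.

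HH108, with 3 copies of chromosome VIII and 1 of IX, had 5 of 60 members called, 4 higher and 1 lower. This line differed from its ancestor in 2936 of 6050 genes (48.5%, with 23% higher and 25.5% lower), so the members' share was below the background. RPL11A had 277, 129 and 181 CPM against 82.2, 91.3 and 73.4, a difference of 1.24 ± 0.45 (SE, edgeR adjusted p = 0.0240). RPL10 had 1556, 876 and 861 CPM against 481, 670 and 288, a difference of 1.18 ± 0.45 (SE, edgeR adjusted p = 0.0306). RPL13A rose by 1.00 ± 0.40 and RPL15B by 0.53 ± 0.16 (SE, edgeR adjusted p = 0.0396 and 0.00741). Colonies of HH108 lay above all ancestor libraries for RPL11A, RPL10 and RPL13A, none of which is on chromosome VIII. RPL15B had 72.0, 61.4 and 53.0 CPM against 53.4, 34.8 and 40.0, with an overlap in colony 3. RPL33A, with few reads, was lower. The count was 1 without colony 1, where 36.2% of genes were called. Of the haploid markers 1 was called higher and 2 lower in this line, and their part was not tested. In its libraries 30.4%, 36.3% and 37.8% of reads had no unique alignment. The values were 19.3%, 21.0% and 16.8% in run 1 of the ancestor, and 33.9% and 40.4% in run 2. Run 2 minus run 1 was 0.43 for RPL11A, 0.90 for RPL10, 0.20 for RPL13A, 0.14 for RPL15B and −1.98 for RPL33A. These are the directions seen in HH108, with only RPL10 and RPL33A called between the runs. The part of the run in the calls of HH108 was not tested.

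Single members were called in HH9 (1 of 60, higher; background 2.81%, with 1.97% higher) and Hh8 (1 of 59, higher; background 13.3%, with 8.3% higher). In HH9, with 3 copies of chromosome XIV, RPL18B on that chromosome had 135, 144 and 149 CPM against 71.1, 66.2 and 60.7, a difference of 1.10 ± 0.22 (SE, edgeR adjusted p = 0.00339). In Hh8, with 4 copies of XVI, RPL15B on chromosome XIII had 39.6, 63.1 and 41.0 CPM against 29.7, 24.4 and 21.8, a difference of 0.91 ± 0.29 (SE, edgeR adjusted p = 0.0306). The groups did not overlap for either. RPL15B was thus called higher in HH4, HH108 and Hh8, of which HH4 and HH108 share ancestor libraries.

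HH112 and HH152 had the highest medians over members, 1.54 and 1.62, positive for 59 of 59, yet 0 members were called in either (0% of 6187 genes). At an unadjusted p below 0.05 there were 3 and 6 members (5.08% and 10.2%), against 4.85% and 2.51% of genes, and DESeq2 called 0. Single colonies set these medians. RPL9A had 1378, 27.8 and 97.3 CPM in HH112 and 161, 71.3 and 1594 in HH152, against 70.1 and 92.0 in run 2 of the ancestor. RPL15B had 62.4, 62.6 and 45.4 in HH112 and 52.0, 41.6 and 66.3 in HH152, against 49.9 and 44.3. RPL9A was far above the ancestor in 1 colony of each line, and colony 1 of HH152 was above it too. RPL15B stayed between 41.6 and 66.3 CPM in all 6. Hh77, with 3 copies of XII, had a median of 0.52 and 59 of 59 positive, with 0 called (background 0.213%). At an unadjusted p below 0.05 there were 7 members (11.9%), near the 11.1% of all genes.

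**Figure D2:**
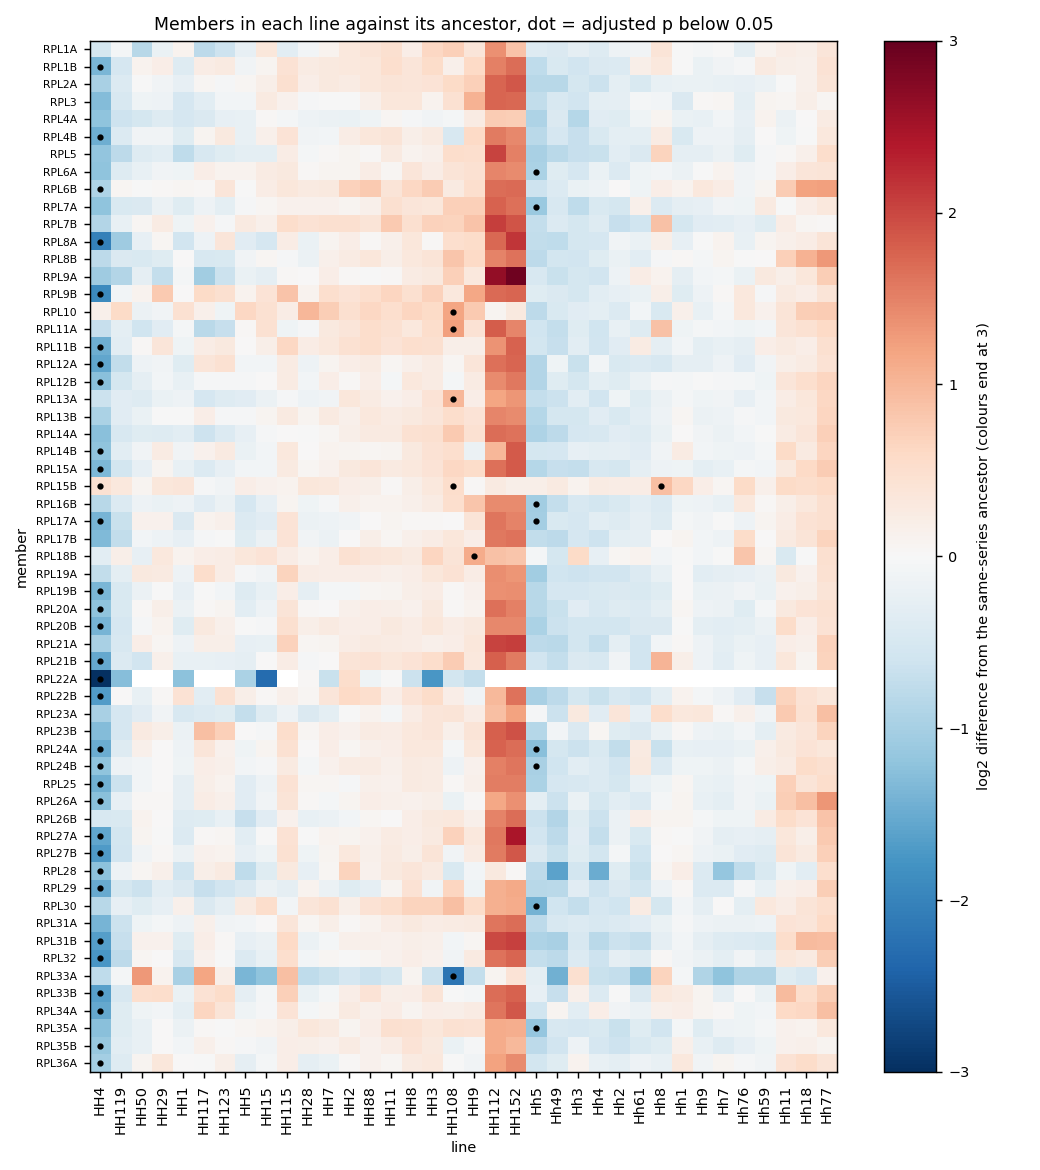
Log2 difference of 59 of the 60 members (rows) in each line (columns, ordered by the shared level of the members within HH and within Hh) from its ancestor, with dots where the edgeR adjusted p was below 0.05. HH4 holds 32 dots, and HH112 and HH152 are the darkest red without any. A member that was not tested is white, and differences near 0 are close to white too.

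Members on a changed chromosome were compared with members on 2-copy chromosomes of the same library, which removes the shared level. Chromosomes raised without a label were kept out of the reference, a choice made after seeing the data. In proportion to copy number, 3 copies would give 0.585 on the log2 scale and 4 copies 1.00. On chromosome V (RPL12A, RPL23B and RPL34A) the median member stood at 0.63 ± 0.07 (SD, n = 3 colonies) above the others in HH117, 0.51 ± 0.06 in Hh4 and 0.56 ± 0.10 in Hh49. In HH123 the colonies lay at −0.04, 0.60 and 0.57, and the first is the library whose chromosome V lay near 2 copies. On XVI (RPL1A, RPL5, RPL7B, RPL11A and RPL21B, with RPL33A left out for its few reads) the value was 0.99 ± 0.07 with 4 copies in Hh8, and 0.68, 0.34 and 0.97 in the colonies of HH112.

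Other chromosomes gave like values. On VII (8 members, among them RPL30, RPL24A and RPL9A) the colonies of Hh61 lay at 0.71, 0.74 and 0.52, and those of Hh59 at 0.16, 0.60 and 0.60. In HH152 the same 8 members lay at −0.04, −0.03 and 0.02, in step with the chromosome's other genes. The 3 members on VIII, which the labels give as 2 copies there, lay at 0.64, 0.59 and 0.84 in HH152. With 3 labelled copies of VIII in HH108, the median of RPL8A, RPL14B and RPL27A was at 0.48, 0.21 and 0.51 in the 3 colonies. On XIV (RPL9B, RPL16B and RPL18B) the means were 0.52 ± 0.08 in HH9 and 0.54 ± 0.14 in Hh76. On XV (5 members, among them RPL3, RPL20B, RPL25 and RPL33B) the colonies of Hh11 lay at 0.075, 0.67 and 0.61. On XII (6 members with reads, among them RPL10 and RPL15A) the mean was 0.48 ± 0.06 in Hh77, and 0.52 ± 0.05 in Hh18, which has no label for that chromosome. RPL17B, the member on the part of X that Hh76 gained, lay at 0.66, 0.50 and 0.85. The colonies whose labelled gain was not seen over the chromosome lay between −0.04 and 0.16.

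**Figure D3:**
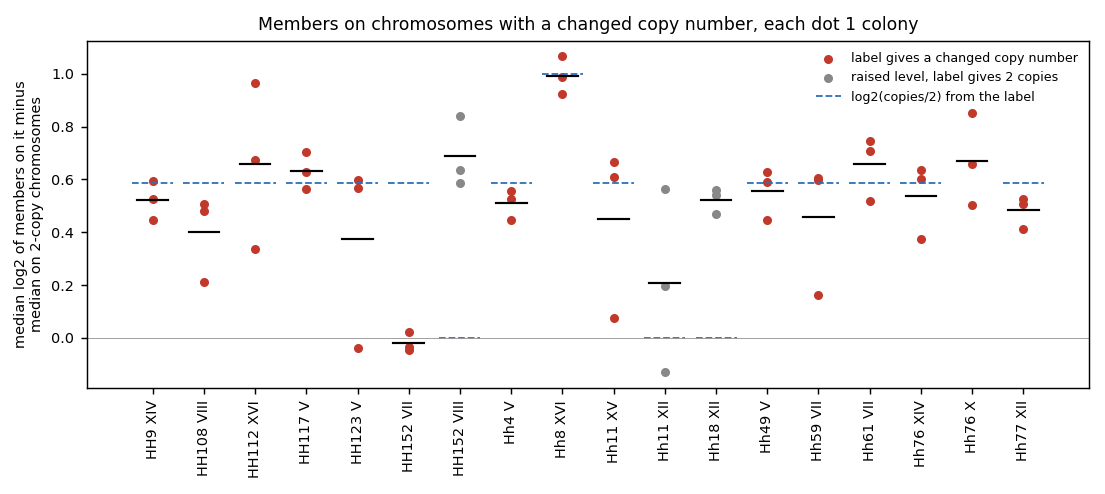
Median log2 level of members on a changed chromosome minus that of members on 2-copy chromosomes, with 1 dot per colony and bars for means. Dashed lines mark log2(copies/2) from the labels; the colonies of HH152 VII lie near 0, and grey dots are chromosomes raised without a label.

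Slopes of log2 level on log2 copies over lines, without that comparison to other members, were far less certain. In HH, 24 members lay on a labelled chromosome and 8 had a slope different from 0, all above it, where 617 of 2248 genes did (27.4%). The called members were RPL9A, RPL11B and RPL26B on VII, RPL18B on XIV and RPL1A, RPL5, RPL7B and RPL11A on XVI. Slopes on VII rest on HH152 and those on XVI on HH112, both lines with fitted differences from the ancestor that were positive for all 59 members tested (medians 1.62 and 1.54). Over all 525 genes on VII the median slope was −0.02, against 1.89 for the 9 members there. Chromosome VII of HH152 lay near 2 copies, so the copy number behind the 3 calls on VII is in doubt. Over all 462 genes on XVI it was 0.83, against 2.56 for the 6 members there. The median slope of the members was 1.75 (0.73 over all genes). It was 0.90 without colony 1, 2.0993 without colony 2 and 1.00 without colony 3 of every line. Without the libraries that go against their labels it was 1.43. The count of 8 became 6 of 15 tested without those libraries (40.8% of genes), 7 without HH1 (27.3%), 5 without colony 3 of every line (21.8%) and 5 without HH29, HH117 or HH123 (26%, 23% and 25.5%). No slope differed from 1 (0 of 24, background 8.01%, 4 at an unadjusted p below 0.05 where 21.8% of genes were, 0 by DESeq2). Without the libraries in doubt 3 did (4.48% of genes), 2 without HH112 (12.9%) and 3 without HH152 (4.91%).

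The largest slope in HH was that of RPL9A, at 3.63 ± 1.32 (SE, edgeR adjusted p = 0.0452 against 0, and 0.0503 without HH1), followed by RPL5 at 3.07 ± 0.92 (SE, edgeR adjusted p = 0.0159). RPL9A turned to −0.33 without colony 3 and RPL5 to −0.25 without colony 1, the colonies in which HH152 and HH112 were high. RPL33A, with few reads, had −1.25 ± 1.07. The 3 members on V had slopes of −0.85 (RPL12A), −0.70 (RPL34A) and −0.48 (RPL23B), none called, in lines whose whole group was low (HH117 at −0.39 and HH123 at −0.34). Relative to the other members the same 3 genes were raised, as given above. Slopes of RPL14B, RPL8A and RPL27A on VIII were 0.89, 1.04 and 1.26, and those of RPL18B, RPL16B and RPL9B on XIV were 1.43, 1.54 and 1.55. On VII, RPL24A, RPL30, RPL1B, RPL24B, RPL11B, RPL7A and RPL26B ran from 1.69 to 2.23, and RPL28, with few reads, was at −0.32. On XVI, RPL7B, RPL21B, RPL1A and RPL11A ran from 2.40 to 2.97.

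In Hh, 33 members were tested and 7 slopes differed from 0, all above it, where 1076 of 2966 genes did (36.3%). They were RPL8B and RPL26A on XII, RPL18B on XIV, RPL25 and RPL33B on XV, and RPL7B and RPL21B on XVI. Slopes on XII rest on Hh77, on XIV on Hh76, on XV on Hh11 and on XVI on Hh8. The shared level of the members in these lines was 0.97, 0.26, 0.62 and 0.10, and a slope holds that level too. Hh18 entered with 2 copies of XII, as labelled, although that chromosome was raised. The median slope was 0.92 against 0.80 over all genes, and 0 of 33 differed from 1 (background 0.0337%, 1 at an unadjusted p below 0.05 where 10.6% of genes were, 0 by DESeq2). Without the libraries in doubt 14 slopes differed from 0, where 42.3% of genes did. The count was 14 without colony 1, 1 without colony 2 and 3 without colony 3 of every line (38.4%, 28.8% and 20.6% of genes), 4 without Hh8 and 13 without Hh18 (27.5% and 38.9%). By chromosome, RPL34A, RPL23B and RPL12A on V lay between −0.05 and 0.12, and the members on VII other than RPL28 between 0.44 (RPL26B) and 0.92 (RPL30). On XII the range was 1.36 (RPL10) to 2.18 (RPL26A) without RPL22A, on XIV 0.74 (RPL9B) to 1.42 (RPL18B), on XV 0.39 (RPL3) to 1.69 (RPL33B) and on XVI 0.39 (RPL1A) to 1.17 (RPL7B). RPL7B, on the chromosome with 4 copies in Hh8, had 1.17 ± 0.28 (SE, edgeR adjusted p = 0.00513). RPL26A had 2.18 ± 0.69 (SE, edgeR adjusted p = 0.0220), RPL22A, with few reads, 2.63 ± 1.19 (0.0904) and RPL28 −0.24 ± 0.73 (0.808).

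Paralog pairs allow a change of copy number to be read within a library, since 1 partner gained a copy and the other did not. The log2 ratio of the member on the changed chromosome to its partner was set against the mean of the 2-copy lines of the same experiment. There were 45 such cases when pairs of RPL22A and RPL33A were left out, and 41 moved in the direction of the label, or 38 of 40 without the libraries in doubt. The median shift for 3 copies was 0.585 over 41 cases, and the median share of the in-proportion shift was 1.00. It was 1.10 over 40 cases without the libraries in doubt, 0.985 without HH1, 1.01 over the 29 cases whose pairs had at least 80% unique stretches and 0.92 in deposited FPKM. All 29 of those cases moved in the direction of the label, but 2 of them lie on chromosome VII of HH152, which was near 2 copies, and without the libraries in doubt it was 27 of 27. The mean shift lay outside the range of the 2-copy lines in 29 of 45 cases (64.4%), and in 29 of 40 (72.5%) without the libraries in doubt. Among 2-copy lines the lowest and the highest of each pair and experiment always lie outside the range of the others. That fixes their count at 96 of 811 ratios (11.8%), or 96 of 769 (12.5%) without the libraries in doubt. It includes the pairs of RPL22A and RPL33A and is not a measured background.

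RPL23B, on V, gained against RPL23A in all 4 lines with 3 copies, with mean shifts of 1.03 in HH117, 0.75 in HH123, 0.82 in Hh4 and 0.99 in Hh49, each mean above the in-proportion value. Colony 3 of Hh4 (0.00) and colony 1 of HH123 (0.23) lay below it. Colonies lay at 0.97, 1.30 and 0.80 in HH117 and at 1.11, 0.97 and 0.90 in Hh49, while the 2-copy lines spanned −0.80 to 0.55 in HH and −0.40 to 0.33 in Hh. RPL12A, on the same chromosome and in the same lines, had smaller mean shifts against RPL12B. Its shifts were 0.07, 0.18, 0.38 and 0.40 in that order, and those in HH lay inside the range of 2-copy lines (−0.55 to 0.39). Its colonies lay at 0.12, −0.39 and 0.48 in HH117, at 0.21, −0.18 and 0.50 in HH123, at 0.28, 0.38 and 0.48 in Hh4 and at 0.56, 0.42 and 0.21 in Hh49. In colony 3 of Hh4 it was above RPL23B. A shift also holds any change of the 2-copy partner, and the difference between the 2 pairs was not tested.

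RPL11A gained 1.23 against RPL11B in HH112 (colonies at 1.46, 0.71 and 1.52), and 1.13 in Hh8 (1.11, 1.03 and 1.24) where 4 copies give 1.00. RPL21B was at 0.94 and RPL7B at 1.24 in Hh8, and RPL1A, of a hardly separable pair, at 0.08 with colonies from −0.78 to 0.63. RPL27A in HH108 was at 0.84, with colonies at 0.83, 0.87 and 0.80, while RPL14B and RPL8A on the same chromosome were at −0.19 and 0.21. RPL26B gained 0.59 in Hh59 and 0.75 in Hh61. In Hh77 all 5 cases on XII were positive, from RPL26A at 0.29 to RPL15A at 0.85. Their 2-copy reference holds Hh18 and Hh11 replicate 1, in which XII was raised. Without the libraries in doubt these shifts ran from 0.335 (RPL26A) to 0.927 (RPL15A). The 4 cases against the label were RPL1B and RPL11B in HH152, RPL14B in HH108 and RPL7B in HH112, and each belongs to a pair with under 80% unique stretches. The 2 cases in HH152 lie on VII, which was near 2 copies there.

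**Figure D4:**
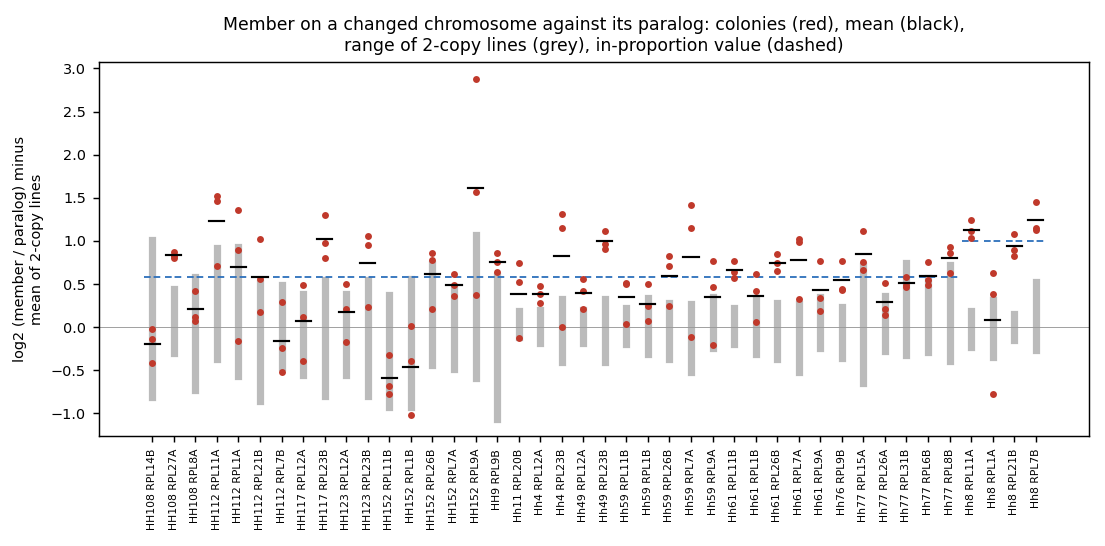
Log2 ratio of a member on a changed chromosome to its paralog, minus the mean of 2-copy lines, for 42 of the 45 cases. Red dots are colonies, black bars means, grey bars the range of 2-copy lines and dashed lines the in-proportion value; RPL27A in HH108 and RPL23B in Hh49 lie clear of the grey bars.

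The balance within pairs also differed between the experiments. Among pairs the most unequal were RPL22 and RPL33, whose A copies have few reads, then RPL15 and RPL7, with the A copy 10.4-fold and 8.84-fold higher over line means. The RPL22 pair had −5.73 ± 1.25 in HH and −6.53 ± 0.79 in Hh, and the RPL33 pair −7.05 ± 0.99 and −6.69 ± 0.50, as mean log2 ratios of A to B with the SD over lines. RPL15A to RPL15B had a mean log2 ratio of 2.88 ± 0.67 (SD, n = 21 lines) in HH and 4.06 ± 0.43 (SD, n = 15) in Hh. RPL7A to RPL7B had 2.62 ± 0.26 and 3.88 ± 0.49. For RPL15 and RPL7 the lowest HH line was HH4 and the highest HH152, the lines at the ends of the shared level.

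The line ranges of the 2 experiments were apart for 3 pairs, which were picked out after the values were seen. RPL1A to RPL1B was at −0.22 ± 0.43 in HH (−0.83 to 0.65) and −2.19 ± 0.20 in Hh (−2.52 to −1.84). RPL4A to RPL4B was at 1.91 ± 0.26 and 0.78 ± 0.12, and RPL35A to RPL35B at 0.32 ± 0.30 and 1.46 ± 0.23 (SD over 21 and 15 lines). All 3 pairs have under 80% unique stretches in the reference, which is of S288C descent like HH but not Hh, and the part of mapping in these differences was not tested. In the deposited FPKM the Hh mean of the RPL1 pair was −3.89, against −0.27 in HH. The RPL7 pair was at 2.33 in HH and 2.27 in Hh in FPKM, so its difference between the experiments in counts was not seen there. The RPL12 pair likewise gave −0.43 in counts and −1.44 in FPKM in HH. Counts and FPKM thus gave different ratios for these pairs, and the cause was not tested. Strain and experiment cannot be told apart.

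The ancestors gave many calls, among the members and among all genes. Between the Hh ancestor and run 2 of the HH ancestor 37 of 59 members differed in edgeR, 33 higher and 4 lower in Hh, where 50% of 6046 genes differed (24.8% higher and 25.2% lower). The median over members was 0.74. The 4 lower members were RPL1A, RPL10, RPL15B and RPL23A. RPL1A had 60.8, 58.9 and 66.0 CPM in Hh and 167 and 179 in HH, a difference of −1.47 ± 0.18 (SE, edgeR adjusted p = 4.329e-05), while RPL1B had 341, 257 and 299 against 106 and 98.1, a difference of 1.56 ± 0.23 (SE, edgeR adjusted p = 0.000162). The partners of this poorly separable pair thus moved in opposite directions. RPL4B had 276, 361 and 380 CPM against 124 and 89.3, a difference of 1.68 ± 0.24 (SE, edgeR adjusted p = 0.000132), and its partner RPL4A did not pass (0.24 ± 0.28). RPL9B had 242, 165 and 175 CPM against 61.7 and 63.1 (1.65 ± 0.25), and its partner RPL9A 179, 172 and 214 against 70.1 and 92.0. RPL21A had 374, 314 and 377 CPM against 148 and 119 (1.42 ± 0.23), with its partner RPL21B at 352, 277 and 384 against 262 and 178. RPL5 had 1335, 1314 and 1572 CPM against 590 and 505 (1.37 ± 0.29). RPL33A, with few reads, had the largest difference (1.85 ± 0.59). The groups did not overlap for RPL1A, RPL1B, RPL4B, RPL9B, RPL21A and RPL5. The count was 24 without replicate 2 of HH run 2, where 36.7% of genes differed and the lone library is assumed to vary like the other groups.

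Between the 2 runs of the HH ancestor 13 of 59 members differed, 2 higher and 11 lower in run 2, where 51.4% of genes differed (27% higher and 24.3% lower). The strain is the same, run 2 has only 2 libraries, and the part of the run in this count was not tested. RPL1B had 195, 295 and 214 CPM in run 1 and 106 and 98.1 in run 2, a difference of −1.20 ± 0.22 (SE, edgeR adjusted p = 0.000998), while RPL1A did not pass (0.07 ± 0.18). RPL14B had 124, 146 and 107 CPM against 83.7 and 40.7 (−1.01 ± 0.29), and its partner RPL14A 93.7, 151 and 122 against 130 and 104. RPL35B had 89.4, 84.3 and 113 CPM against 60.3 and 40.9 (−0.91 ± 0.23), and RPL35A 91.8, 125 and 103 against 85.7 and 68.7. RPL4B (−0.77 ± 0.23) and RPL8A (−0.81 ± 0.29) were also lower, and RPL10 was higher (0.90 ± 0.34), at 1100 and 693 CPM against 481, 670 and 288. RPL28 (−2.41 ± 0.50) and RPL33A (−1.98 ± 0.61) have few reads. The count was 20 without replicate 1 of run 1, 8 without its replicate 3, and 3 without replicate 2 of run 2, where 51.7%, 43.4% and 38% of genes differed, the last with 1 library left in run 2 as above. Of the haploid markers 2 were called lower between the runs, and 2 higher and 2 lower between the Hh ancestor and run 2. Both comparisons use run 2 and so share its libraries.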

How the data were processed

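The authors deposited whole-number read counts per gene for each library and a table of FPKM values, normalised for length and depth. HTSeq 0.6.1pl, TopHat2 2.1.1, Trim Galore 0.4.4 and Cufflinks, Cuffnorm and Cuffdiff 2.2.1 on sacCer3 are named per the submitters' processing notes, without settings. Whether reads were counted by strand is not known from the sources, so overlapping genes are uncertain. FPKM was used only as a named alternative, with no test.

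Of 7126 features, 6086 matched the R64 annotation by name. Reads in no gene (2.21% to 9.99% of a library), ambiguous reads and reads that did not align uniquely stayed out of library sizes. Counts of the 3 colonies of a line were summed for class and dosage tests, so the line was the replicate, and lines and ancestors were compared on single libraries, where p-values measure the spread between colonies. edgeR 4.0.16 in R 4.3.3 was used with TMM, filterByExpr and robust quasi-likelihood fits, and p-values were adjusted over all genes tested by Benjamini-Hochberg with a threshold of 0.05. The HH class fit had a term for the name series (SC or X), which was taken to mark the 2 runs, though the labels do not say so for lines. Run 2 of the HH ancestor was set against the X lines for the same reason. HH2 was grouped by its titles, although another line is named in the description of replicates 2 and 3. Slopes were fitted on log2(copies/2) from the labels. CPM are counts over TMM effective sizes of all libraries, with 0.5 added before log2. Scripts were tested on simulated counts. DESeq2 1.42.0 was an alternative.

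The named genes were chosen by these rules. For class comparisons they were the 4 members with the smallest p where none passed, and for dosage the members on changed chromosomes with more detail for the 3 slopes farthest from 1. For ancestors they were the 8 largest differences with their paralogs, for pairs the most variable and most unequal, for lines the 3 with the most members called in each direction, and the 5 members least correlated with the others. The members, lists and tests were chosen with earlier results of these data known.

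Same-numbered colonies deviated together in part, most of all in HH lines named X, as given below. Colony 3 of HH50, HH112, HH115, HH117 and HH123 had 39.97%, 60.75%, 68.39%, 49.34% and 44.63% of reads without a unique alignment. The other colonies of these lines had 15.28% to 27.11%. In HH29 colonies 1 and 3 were high (44.28% and 45.99%), and in HH152 colony 3 was lowest (24.7%). The part of this in the spread between colonies was not tested. Colonies of a line differed by more than sampling noise (lowest chi-square per degree of freedom 7.04 over 115 pairs), so each library counted once. Total counts of 4129372 to 12148296 per library leave a member with a few reads imprecise. Chromosomes raised without a label, the limit of 25 reads and the printed upstream stretches were settled after the values were seen. Results for 1 member and its pair are not reported here, and they are left out of the figures that name genes.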

Additional observations from a re-analysis of the deposited data

Results flagged for a closer look

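Among 36 groups of lines checked for 1 line far from the others, where chance alone gives about 1 in 20, 3 held such a line. RPL18B stood at 142 CPM in HH9, which has 3 copies of its chromosome XIV, where the other HH aneuploid lines lay between 66.7 and 108. RPL18B stood at 118 CPM in the euploid line Hh3, where the other Hh euploid lines lay between 74.6 and 81.4. RPL15B stood at 39.2 CPM in the euploid line Hh1, where the others lay between 26.9 and 29.1.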

How the results depend on the processing

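Of 326 recomputed summaries, 286 kept their size within a set tolerance and 40 moved. Counts were allowed a fixed fold change, but none between 0 and another count. Class medians were allowed the pooled SD of line means, from 0.512 in HH aneuploid and 0.573 in HH euploid lines. These tolerances are wide, and the HH class medians over SC lines alone and over X lines alone both count as kept. Under DESeq2 the Hh class comparison called 8 members (17.8% of genes) and the Hh lines 14 against their ancestor (3.74%), and under TMM from unaltered chromosomes the Hh class comparison called 1. Without the libraries and lines in doubt 3 HH slopes differed from 1 and 14 Hh slopes from 0. Without HH1, also chosen after seeing the data, 7 HH slopes differed from 0. When 1 replicate number or 1 line was left out, calls ran from 5 to 10 for HH slopes against 0, from 0 to 4 for HH slopes against 1, from 1 to 14 for Hh slopes against 0 and from 0 to 5 for the Hh class comparison, and the HH median slope ran from 0.90 to 2.0993. Calls against the ancestor ran from 4 to 59 for HH lines named SC and from 0 to 5 for Hh lines, both summed over lines. They ran from 0 to 55 for HH4, from 1 to 4 for HH108 and from 0 to 5 for Hh5. The calls over all genes moved with the setting too, as given above for HH4, HH108 and Hh5. Calls ran from 24 to 40 between the Hh ancestor and run 2 of HH, and from 3 to 20 between the runs of HH. The slopes that turned ran from −0.33 to 5.95 for RPL9A and from −0.25 to 4.71 for RPL5 in HH, and from −0.62 to 0.16 for RPL28 in Hh. Of 573 values of named members, 531 kept direction and side, 28 lost and 11 gained a call. The cause was not tested.

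With the replicate number as a block, 33 members were called in the HH lines named SC, 27 in HH4, 5 in HH108, 0 in the HH lines named X, 13 in the Hh lines and 12 in Hh5, 33 between the Hh ancestor and run 2 of HH and 10 between the runs. All genes called were 4800, 946, 2928, 64, 3936, 1570, 3096 and 3188 in that order. Where several lines are named, members and genes are summed over the lines. The main fits tested 6050 genes in each HH line named SC and 6187 in each named X. They tested 6098 in each Hh line and 6046 between ancestors. RPL10 (adjusted p = 0.0848) and RPL8A (0.0784) lost their call between the runs under edgeR. Same-numbered colonies had a median correlation of deviations of 0.017 in HH lines named SC, 0.324 in those named X, 0.164 in Hh and 0.167 in ancestors. In that order 100 of 315, 60 of 77, 202 of 360 and 4 of 7 pairs passed 0.1. The main fits treat the numbers as unpaired, and what same-numbered colonies share, most of all in lines named X, was not tested.

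Precision is limited by few reads (RPL22A, RPL28, RPL33A), by reads shared between paralogs and by single colonies that decide a line.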
